A study of Mus musculus with 6 samples.

Results

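The genes described here make, break down or sense prostaglandins, and 10 were listed by symbol: Pla2g4a, Ptgs1, Ptgs2, Ptgds, Hpgds, Ptges, Ptgis, Tbxas1, Hpgd and Ptger4. Of these, 9 were measured, among 19505 genes with a probe set on the array. No probe set was paired with the symbol Ptgs1, so that gene, a cyclooxygenase known for constitutive expression, was not analysed here. Each of the 9 had 1 probe set, so none was selected on its mean over the 6 arrays. The genes were chosen by symbol with results of these data known, among them the difference of Ptgds between MBELN and PBS. The values of Ptgds are therefore a description. It is counted where the fit over all probe sets calls it, and nothing is read from that call.

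Prostaglandins are local lipid signals. A phospholipase frees arachidonic acid from membranes, cyclooxygenases turn it into an unstable intermediate, and terminal synthases convert that intermediate into prostaglandin D2, prostaglandin E2, prostacyclin or thromboxane. A transporter and a dehydrogenase clear them, and receptors on the cell surface read them. In the gut, prostaglandin E2 is known for its part in mucus secretion and epithelial repair.

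MBELN samples were 3 arrays from C57BL/6J mice given mulberry bark derived nanoparticles that resemble exosomes by daily oral gavage over 7 days. The controls were 3 arrays from C57BL/6J mice titled PBS. Every sample is labelled as colon crypt, the gland of the colonic epithelium. The labels give neither sex nor age. Whether the arrays come from different mice is not stated, so the p-values reflect only how these samples vary. Within each group that spread includes a difference of tissue markers, described below, and part of it may be technical. Over all probe sets, MBELN 2 correlated at 0.66 with MBELN 1 and with MBELN 3, which correlated at 0.98 with each other. PBS 2 correlated at 0.89 with PBS 1 and with PBS 3, which correlated at 0.98 with each other.

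The arrays did not all carry the markers of the labelled tissue, as the plot of marker lists by array shows. Values are the deposited ones, read as log2. Probe sets were called dim in an array below the 95th percentile of its 1414 probe sets for smell and pheromone receptors (Olfr and Vmn genes), a level between 3.99 and 4.44. Heart muscle genes, 15 of 15 measured, had medians of 18.63, 3.37 and 18.92 in MBELN 1, 2 and 3, and between 3.66 and 4.0 in the PBS arrays. Neuron genes had a median of 15.56 in MBELN 2 and between 3.13 and 4.05 in the other 5 arrays. Heart markers were thus high in MBELN 1 and MBELN 3, and brain markers in MBELN 2. Gut epithelial genes had medians of 7.12, 3.35 and 5.78 in MBELN 1, 2 and 3, against 19.31, 17.89 and 19.25 in PBS 1, 2 and 3. Paneth cell genes, which mark the small intestine, had medians of 19.06 and 19.61 in PBS 1 and PBS 3, against 3.60 in PBS 2. Colon epithelial genes had a median of 16.73 in PBS 2, against 4.52 in PBS 1 and 5.54 in PBS 3. Colon epithelial markers were thus high in PBS 2 alone. Markers of the tissue around crypts were high there too: smooth muscle genes had a median of 17.28 in PBS 2, 15.55 in PBS 1 and 15.54 in PBS 3, and fibroblast genes had 11.84 in PBS 2, 6.92 in PBS 1 and 6.97 in PBS 3. No array carried markers of colonic epithelium without those of muscle. Treatment and the tissue that these markers show cannot be told apart in any comparison of MBELN with PBS, and bulk RNA cannot tell fewer cells of a type from less RNA per cell.

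**Figure D1:**
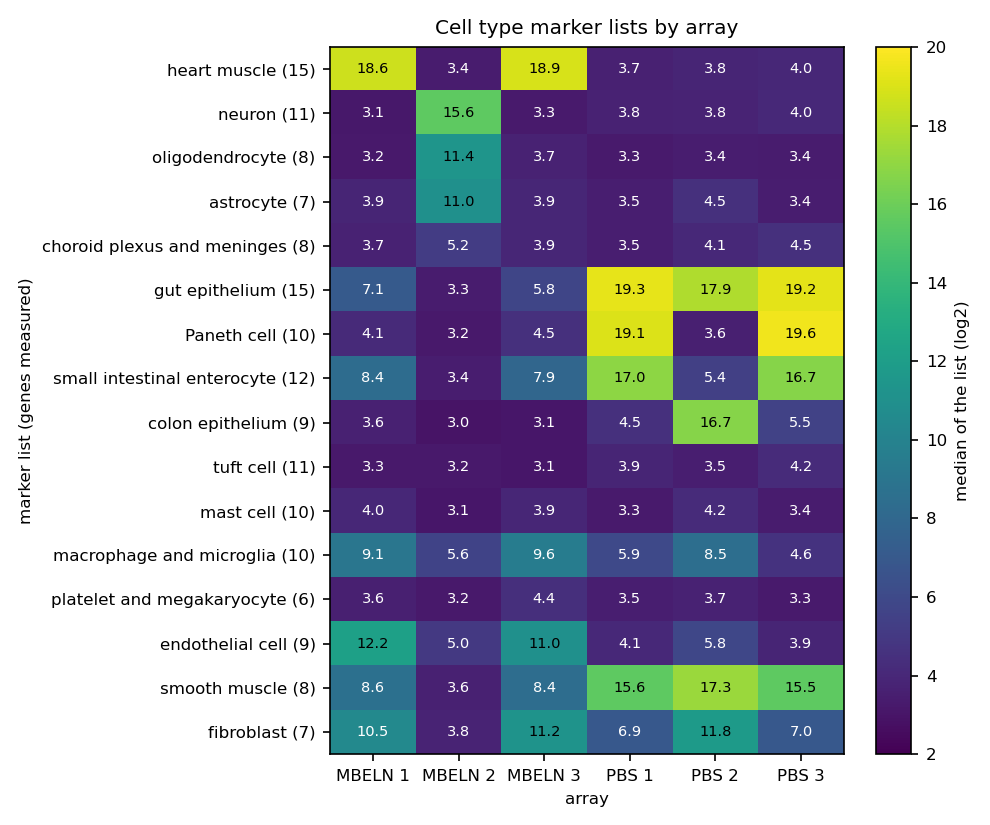
Median log2 value of each cell type marker list (rows, with the number of genes measured) in each array (columns), printed in the cell and shown as colour. Heart muscle reads 18.63 and 18.92 in MBELN 1 and MBELN 3, neuron 15.56 in MBELN 2, and gut epithelium between 17.89 and 19.31 in the PBS arrays.

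The prostaglandin genes differed between the groups in both directions. Ptgds, a prostaglandin D synthase, and Ptgs2, the inducible cyclooxygenase, had all 3 MBELN values above all 3 PBS values. Pla2g4a, the phospholipase, Hpgd, the dehydrogenase that inactivates prostaglandins, and Ptger4, a receptor for prostaglandin E2, had all 3 MBELN values below all 3 PBS values. The groups thus did not overlap in 5 of 9 genes, in 4 of 8 without Ptgds, and in 25.3% of all 22206 probe sets. Nothing is read from the place of Ptgds in that count, since its difference was known. With limma and Benjamini-Hochberg adjustment over all probe sets, 1 of 9 genes passed an adjusted p of 0.05, and it was Ptgds, whose rise was known when the list was made. Of all probe sets 5.18% passed, 1.42% higher and 3.76% lower in MBELN. None of the other 8 passed with limma, and 3 of the 8 (Ptgs2, Hpgd and Ptger4) had an unadjusted p under 0.05, as did 17.8% of all probe sets. The median difference of the 9 genes was -0.70 (log2, MBELN minus PBS), beside 0.09 over all probe sets, and it turned to 0.70 without PBS 2. Without MBELN 1, PBS 1 or PBS 3, 0 of the 9 passed with limma, beside 501, 377 and 379 of all 22206 probe sets. Over all 6 arrays 1150 probe sets passed, so fewer passed throughout. The difference of Ptgds was then 11.51, 11.76 and 12.37, beside 12.00 over all 6 arrays.

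**Figure D2:**
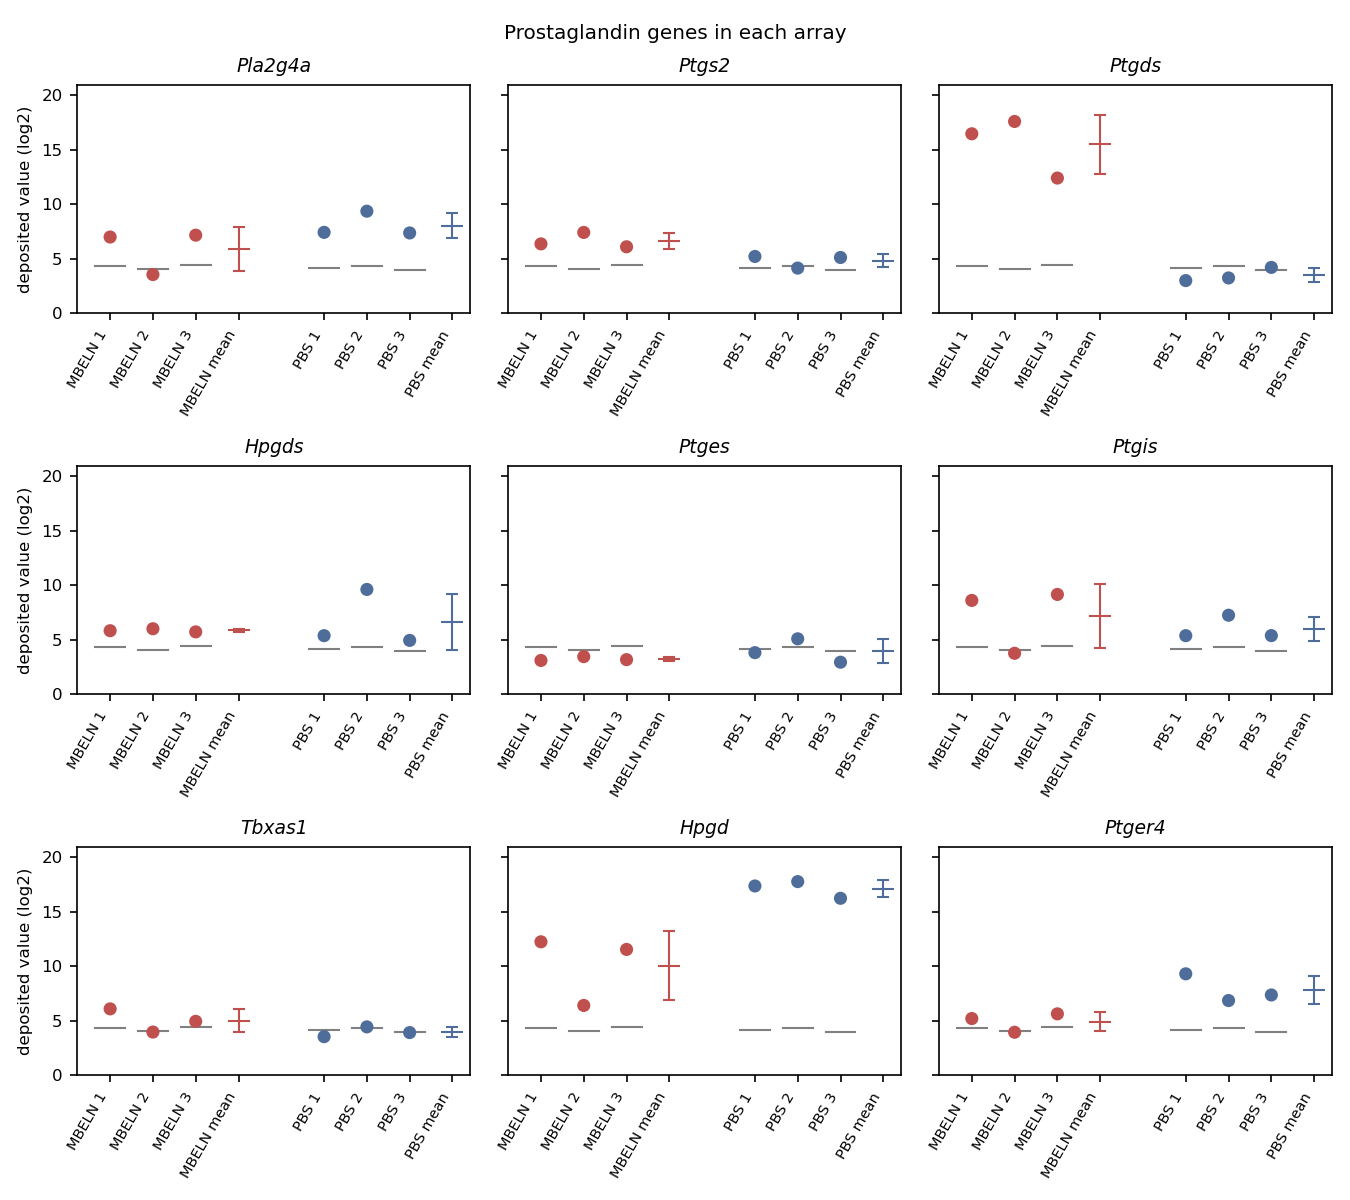
Deposited log2 value (y axis) of each measured prostaglandin gene in each array (points, MBELN red and PBS blue), with the group mean and SD (horizontal mark and bar, n = 3) and the dim level of each array (grey lines). Ptgds lies between 12.42 and 17.61 in MBELN and between 3.02 and 4.23 in PBS, and Hpgd between 6.42 and 12.26 in MBELN and between 16.25 and 17.78 in PBS.

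Pla2g4a encodes the cytosolic phospholipase A2 that frees arachidonic acid. It read 7.01, 3.57 and 7.18 in MBELN 1, 2 and 3, against 7.44, 9.38 and 7.39 in PBS 1, 2 and 3. MBELN 2 was low, below its dim level, PBS 2 was high, and the other 4 arrays lay close together. The difference was -2.15 ± 1.16 (log2, SE, n = 3) and did not pass (limma, adjusted p = 0.416). Without both arrays numbered 2 it was -0.32 (limma, adjusted p = 0.537).

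Ptgs2, the inducible cyclooxygenase, makes the intermediate shared by all prostaglandins. It read 6.38, 7.43 and 6.12 in MBELN 1, 2 and 3, against 5.23, 4.16 and 5.13 in PBS 1, 2 and 3. MBELN 2 was the highest, and PBS 2 was the lowest and below its dim level. The difference was 1.80 ± 0.50 (log2, SE, n = 3) and did not pass (limma, adjusted p = 0.130). It lay between 1.41 and 2.07 when any 1 array was left out. Ptgs2 and Pla2g4a lie on chromosome 1 with 0 protein-coding genes between them in the GRCm38.p6 gene table, and MBELN 2 had the highest value of Ptgs2 and the lowest of Pla2g4a.

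Ptgds encodes the lipocalin-type prostaglandin D synthase, known from the meninges, choroid plexus and oligodendrocytes of the brain and also from heart. Its promoter is printed beside that of Hpgds, the gene of the unrelated haematopoietic prostaglandin D synthase of mast cells, macrophages and tuft cells, because both enzymes make the same product while their values peaked in different arrays. Each line is the 250 bases before the gene start in RefSeq, build GRCm38.p6, read 5′ to 3′ on the gene's strand, at chr2:25469750-25469999 on the minus strand and chr6:65144731-65144980 on the minus strand.
Ptgds: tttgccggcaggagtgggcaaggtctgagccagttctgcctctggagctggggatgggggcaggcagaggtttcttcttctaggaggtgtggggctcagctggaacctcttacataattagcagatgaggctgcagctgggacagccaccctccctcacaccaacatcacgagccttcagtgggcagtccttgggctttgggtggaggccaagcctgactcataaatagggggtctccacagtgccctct
Hpgds: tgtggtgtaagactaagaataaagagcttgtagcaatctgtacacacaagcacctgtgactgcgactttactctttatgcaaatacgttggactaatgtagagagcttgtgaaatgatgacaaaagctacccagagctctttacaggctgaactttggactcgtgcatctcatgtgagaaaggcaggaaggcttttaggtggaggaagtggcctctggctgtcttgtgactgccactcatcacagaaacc
Both strands were searched for a core promoter box spelled TATAAA, the box for Sp factors spelled GGGCGG, the E-box spelled CACGTG and the core of the cyclic AMP response element spelled ACGTCA, and matches would be in capitals. Neither window held any of these exact spellings, and variants of them were not searched. G and C made up 58.4% of the Ptgds window and 45.2% of the Hpgds window, beside a median of 52.4% over 32851 RefSeq promoter windows of this length.

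Ptgds read 16.48, 17.61 and 12.42 in MBELN 1, 2 and 3, against 3.02, 3.26 and 4.23 in PBS 1, 2 and 3. The PBS values were below the dim level in PBS 1 and PBS 2 and above it in PBS 3. Its difference was 12.00 ± 1.38 (log2, SE, n = 3), between 10.95 and 13.54 when any 1 array was left out. Ptgds was thus bright both in the arrays with heart markers and in the array with brain markers, and MBELN 3 was lower than MBELN 1 although their heart muscle medians were close. Oligodendrocyte genes had a median of 11.42 in MBELN 2, against 3.20 in MBELN 1 and 3.75 in MBELN 3 and between 3.32 and 3.43 in PBS. For choroid plexus and meninges, 8 of 10 genes were measured, with medians of 3.71, 5.23 and 3.93 in MBELN 1, 2 and 3, against 3.51, 4.07 and 4.53 in PBS 1, 2 and 3. Of these, Folr1 and Slc4a5 were dim in every array. Ttr read 4.02, 8.87 and 4.28 in MBELN 1, 2 and 3, against 6.01, 11.13 and 6.52 in PBS 1, 2 and 3, so it was high in MBELN 2 and higher still in PBS 2. Slc6a13 and Kl were above the dim level in MBELN 2 alone, at 5.62 and 4.84. Igf2 read 14.66, 8.96 and 13.71 in MBELN 1, 2 and 3, against 5.11, 5.35 and 5.23 in PBS 1, 2 and 3. The log2 of the list's summed level ran between 10.19 and 19.95 in MBELN and between 14.98 and 19.92 in PBS. In every array except MBELN 2, most of that was Dcn, which is also on the fibroblast list. Dcn read 6.54 in MBELN 2 and between 14.97 and 19.93 in the other arrays, so the sum is not specific to choroid plexus and meninges. The part of oligodendrocytes, choroid plexus and meninges in the values of Ptgds was not tested.

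Hpgds read 5.85, 6.03 and 5.74 in MBELN 1, 2 and 3, against 5.39, 9.63 and 4.96 in PBS 1, 2 and 3. PBS 2 alone stood high and the groups overlapped. The difference was -0.79 ± 1.28 (log2, SE, n = 3; limma, adjusted p = 0.790), and without PBS 2 it turned to 0.70 (limma, adjusted p = 0.355). Mast cell genes above the dim level numbered 4, 1 and 3 of 10 in MBELN 1, 2 and 3, against 2, 5 and 1 in PBS 1, 2 and 3, and the log2 of their summed level ran between 7.89 and 9.90 in MBELN and between 9.09 and 9.47 in PBS. Fcer1a, Ms4a2, Mcpt1, Mcpt2 and Hdc of this list were dim in every array. Within PBS, the mast cell proteases were high in PBS 2 as Hpgds was: Cpa3 read 7.70 there, against 3.23 in PBS 1 and 3.55 in PBS 3, and Mcpt4 read 6.89, against 4.32 and 3.91. In MBELN, Cpa3 read 9.41, 3.10 and 6.20, while Hpgds was nearly level. Kit, which other cell types also express, read 8.95 and 9.26 in PBS 1 and PBS 3 and made up most of the summed level there. Tuft cell genes, 11 of 13 measured and Hpgds among them, were above the dim level in 3, 2 and 2 cases in MBELN 1, 2 and 3, against 4, 2 and 6 in PBS 1, 2 and 3. Pou2f3, Il25, Gfi1b, Il17rb and Chat were dim in every array, Trpm5 was above the level in PBS 1 and PBS 3 (5.09 and 4.71), and Dclk1, also a gene of neurons, read 16.69 in MBELN 2. Macrophage genes had medians of 9.10, 5.60 and 9.57 in MBELN 1, 2 and 3, against 5.94, 8.48 and 4.61 in PBS 1, 2 and 3, so within PBS they were high where Hpgds was high. The part of these cells was not tested.

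Ptges encodes the inducible synthase of prostaglandin E2. It read 3.12, 3.47 and 3.20 in MBELN 1, 2 and 3, against 3.84, 5.10 and 2.96 in PBS 1, 2 and 3. PBS 2 was the only array above its dim level, and the groups overlapped. The difference of -0.70 ± 0.58 (log2, SE, n = 3) did not pass (limma, adjusted p = 0.590), and no fold is given between values this dim.

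Ptgis, the prostacyclin synthase known from endothelium and smooth muscle, split MBELN. It read 8.63, 3.78 and 9.18 in MBELN 1, 2 and 3, against 5.39, 7.27 and 5.40 in PBS 1, 2 and 3. MBELN 2 was the lowest of the 6, below its dim level, and MBELN 1 and MBELN 3 were the highest. The difference of 1.17 ± 1.55 (log2, SE, n = 3) did not pass (limma, adjusted p = 0.740). Without MBELN 2 it was 2.88 (limma, adjusted p = 0.0406), in a fit where 16.8% of probe sets passed. Endothelial genes had medians of 12.22, 4.99 and 11.03 in MBELN 1, 2 and 3, against 4.09, 5.84 and 3.87 in PBS 1, 2 and 3, with the log2 of their summed level between 8.60 and 15.3 in MBELN and between 7.44 and 9.48 in PBS. Smooth muscle genes had medians of 8.63, 3.65 and 8.40 in MBELN 1, 2 and 3, against 15.55, 17.28 and 15.54 in PBS 1, 2 and 3. Within MBELN both lists were lowest in MBELN 2, as Ptgis was, and between the groups they ran in opposite directions. Fibroblast genes had medians of 10.49, 3.76 and 11.24 in MBELN 1, 2 and 3. In PBS 1, 2 and 3 they had 6.92, 11.84 and 6.97. That list was also lowest in MBELN 2 and, within PBS, highest in PBS 2, as Ptgis was. Its highest median was in PBS 2, where Ptgis was below MBELN 1 and MBELN 3. The part of these cells in the values of Ptgis was not tested.

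Tbxas1, the thromboxane synthase known from platelets and macrophages, read 6.11, 3.98 and 4.96 in MBELN 1, 2 and 3, against 3.56, 4.46 and 3.93 in PBS 1, 2 and 3. It was above the dim level in MBELN 1, MBELN 3 and PBS 2, and the groups overlapped. The difference of 1.04 ± 0.61 (log2, SE, n = 3) did not pass (limma, adjusted p = 0.455). Platelet genes, 6 of 7 measured, had medians between 3.21 and 4.42 in MBELN and between 3.29 and 3.72 in PBS, and Gp5 and Gp6 were dim in every array. The log2 of their summed level was 10.9, 6.41 and 10.9 in MBELN 1, 2 and 3, against 6.33, 8.17 and 6.03 in PBS 1, 2 and 3. In MBELN 1, MBELN 3 and PBS 2 most of that was Pf4. It read 10.84, 3.69 and 10.80 in the MBELN arrays, against 4.60, 7.83 and 3.36 in the PBS arrays. The summed platelet level and the macrophage medians given above were both high in the 3 arrays in which Tbxas1 was above the level. Platelet genes above the dim level numbered 2, 2 and 3 in MBELN 1, 2 and 3, against 2, 1 and 2 in PBS 1, 2 and 3. Itga2b was highest in MBELN 2 (4.94) and lowest in PBS 2 (3.73), so the platelet likeness rests on Pf4. The part of these cells was not tested.

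Hpgd encodes the dehydrogenase that inactivates prostaglandins, and Ptger4 encodes the EP4 receptor, through which prostaglandin E2 raises cyclic AMP. Their promoters are shown together because both genes read lower in all 3 MBELN arrays, as Pla2g4a also did. They are the 250 bases before the start in RefSeq, build GRCm38.p6, at chr8:56294302-56294551 on the plus strand and chr15:5244188-5244437 on the minus strand, and the capitals mark the box for Sp factors as it appears when it lies on the opposite strand.
Hpgd: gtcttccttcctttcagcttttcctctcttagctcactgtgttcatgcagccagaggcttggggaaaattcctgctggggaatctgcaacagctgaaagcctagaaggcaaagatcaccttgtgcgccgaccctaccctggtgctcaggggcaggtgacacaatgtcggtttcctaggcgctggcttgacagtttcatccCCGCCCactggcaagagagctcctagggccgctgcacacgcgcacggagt
Ptger4: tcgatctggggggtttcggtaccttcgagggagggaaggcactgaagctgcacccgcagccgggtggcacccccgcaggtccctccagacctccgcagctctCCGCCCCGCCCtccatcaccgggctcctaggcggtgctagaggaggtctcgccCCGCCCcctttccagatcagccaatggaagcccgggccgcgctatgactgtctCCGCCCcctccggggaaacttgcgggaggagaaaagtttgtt
Hpgd held 1 such box and Ptger4 held 4, of which 2 overlap by 1 base. Neither held the other motifs. The Sp box was also in the windows of Ptgs2, which read higher in MBELN, and of Ptges. Neither of the 2 windows of Pla2g4a held it. Over all windows of this length, 32.7% held the Sp box, 12.4% the core promoter box, 6.02% an E-box and 6.47% the core of the cyclic AMP response element. G and C made up 56.8% of the Hpgd window and 66.8% of the Ptger4 window. A match describes the letters and does not show a site in use.

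Hpgd read 12.26, 6.42 and 11.56 in MBELN 1, 2 and 3, against 17.38, 17.78 and 16.25 in PBS 1, 2 and 3. All PBS arrays were bright, those with small intestinal and that with colon markers alike, and MBELN 2 was lowest. The difference was -7.06 ± 1.61 (log2, SE, n = 3) and did not pass (limma, adjusted p = 0.0775). Without MBELN 2 it was -5.23 (limma, adjusted p = 0.00279), in a fit where 16.8% of all probe sets passed. Without any 1 of the other 5 arrays it lay between -8.15 and -6.74 and did not pass (limma, adjusted p between 0.113 and 0.268). Gut epithelial genes above the dim level numbered 11, 2 and 12 of 15 in MBELN 1, 2 and 3, against 15, 14 and 15 in PBS 1, 2 and 3, and the log2 of their summed level ran between 7.53 and 11.3 in MBELN and between 22.3 and 22.8 in PBS. Hpgd and these genes were thus lowest in the same array and high in the same 3 arrays. In MBELN 1 and MBELN 3 Hpgd was still bright, where gut epithelial medians were 7.12 and 5.78. The smooth muscle medians given above were also lowest in MBELN 2 and high in the PBS arrays. Within PBS they were highest in PBS 2, as Hpgd was, while the gut epithelial median was lowest there. The part of epithelium and of smooth muscle in the values of Hpgd was not tested.

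Ptger4 read 5.22, 3.96 and 5.65 in MBELN 1, 2 and 3, against 9.32, 6.87 and 7.38 in PBS 1, 2 and 3. MBELN 2 was the lowest and below its dim level, and PBS 1 was the highest. The difference was -2.91 ± 0.79 (log2, SE, n = 3) and did not pass (limma, adjusted p = 0.124). It lay between -3.41 and -2.18 when any 1 array was left out, in each case short of the threshold.

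**Figure D3:**
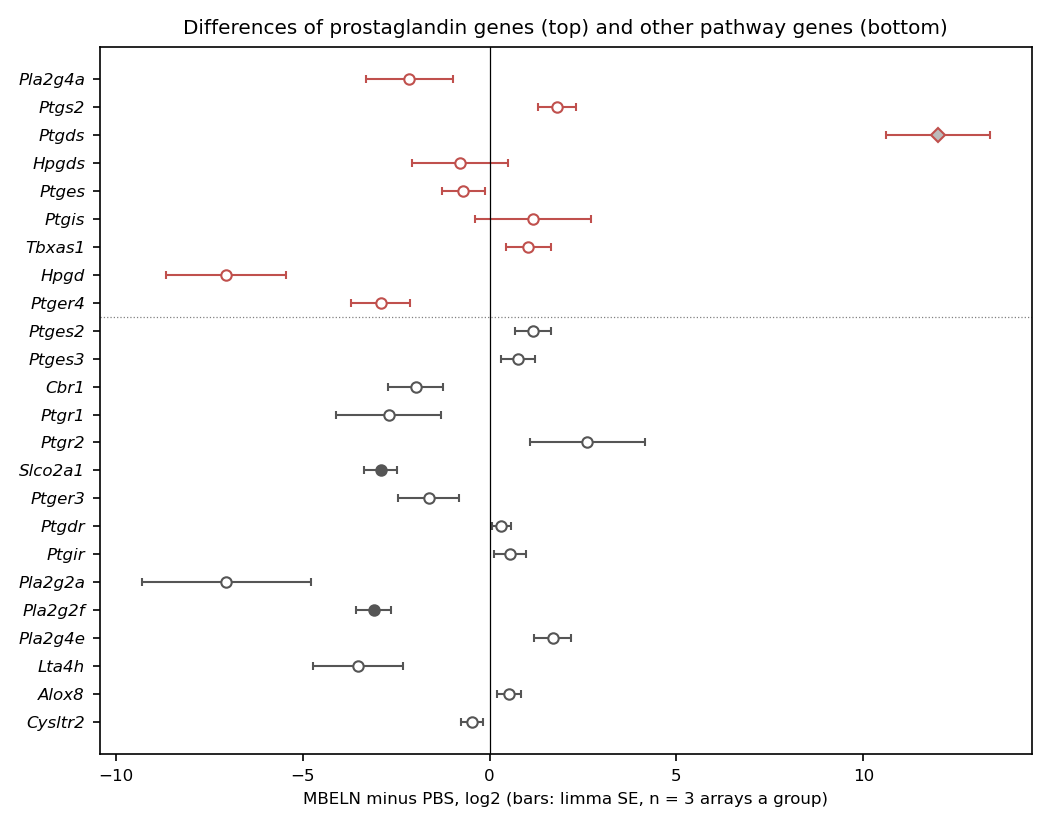
Difference of group means, MBELN minus PBS on the log2 scale (x axis, bars limma SE, n = 3 arrays a group), for the 9 measured prostaglandin genes (red) and 15 other genes of the pathway (grey). Filled circles, Slco2a1 and Pla2g2f, have an adjusted p under 0.05, open circles do not, and Ptgds is a diamond because it was chosen with its rise known.

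Many of the highest and lowest values of the 9 genes fell in the arrays numbered 2. The share of all probe sets with their extremes there was not counted, so this is not read as a trait of these genes. Over all probe sets MBELN 2 correlated least with the other arrays. MBELN 2, with brain markers, held the lowest value of Pla2g4a, Ptgis, Hpgd and Ptger4, and the highest of Ptgs2 and Ptgds. PBS 2, with colon markers, held the highest value of Pla2g4a, Hpgds, Ptges and Hpgd. Genes above the dim level numbered 8, 4 and 8 of 9 in MBELN 1, 2 and 3, against 6, 7 and 7 in PBS 1, 2 and 3. Of all probe sets, 50.7%, 55.2% and 50.3% were above it in MBELN 1, 2 and 3. In PBS 1, 2 and 3 the shares were 53.1%, 52.0% and 55.0%. Without both arrays numbered 2, 6 of 9 passed (Ptgs2, Ptgds, Ptgis and Tbxas1 higher, Hpgd and Ptger4 lower), in a fit where 30.5% of all probe sets passed. That fit sets 2 arrays with heart markers against 2 with small intestinal markers. The median difference of the 9 was then 0.62. With array weights the same 6 passed, beside 25.9% of probe sets.

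The arrays also differed in their hybridisation controls, spiked transcripts that are added during processing. Their mean was 10.08, 8.63 and 10.09 in MBELN 1, 2 and 3, against 8.98, 9.79 and 8.43 in PBS 1, 2 and 3, so that MBELN 1, MBELN 3 and PBS 2 were higher. With this level as a block, 4 of 9 genes passed (Ptgs2 and Ptgds higher, Pla2g4a and Hpgd lower), beside 6.19% of probe sets. Within the higher level the comparison is of 2 arrays with heart markers and 1 with colon markers, and within the lower level of 1 with brain markers and 2 with small intestinal markers. In each, 1 group is a single array, whose spread is taken from the other group. The fits called 6 of 9 genes beside 18.8% of probe sets and 6 of 9 beside 32.6%, and these counts support nothing about the groups. Hpgd differed by -5.87 within the higher level and by -10.39 within the lower, and Ptgis by 1.63 and by -1.62, opposite in sign. Among the 12083 probe sets left by a filter on dim values, 11.1% passed, and 2 of 8 genes left, Ptgds and Hpgd, were among them.

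The rest of the eicosanoid pathway was read from 50 other genes, of which 46 were measured. None was higher and 2 were lower past the threshold in MBELN (limma), beside 5.18% of all probe sets in either direction. The other 44 did not pass, and 6 of 46 had an unadjusted p under 0.05, beside 17.8% of all probe sets. The median difference of the 46 was 0.12. The groups did not overlap in 12 of them, 4 higher and 8 lower, near the 25.3% of all probe sets. Of the 46, 13 were dim in every array, as were 6405 of all 22206 probe sets.

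**Figure D4:**
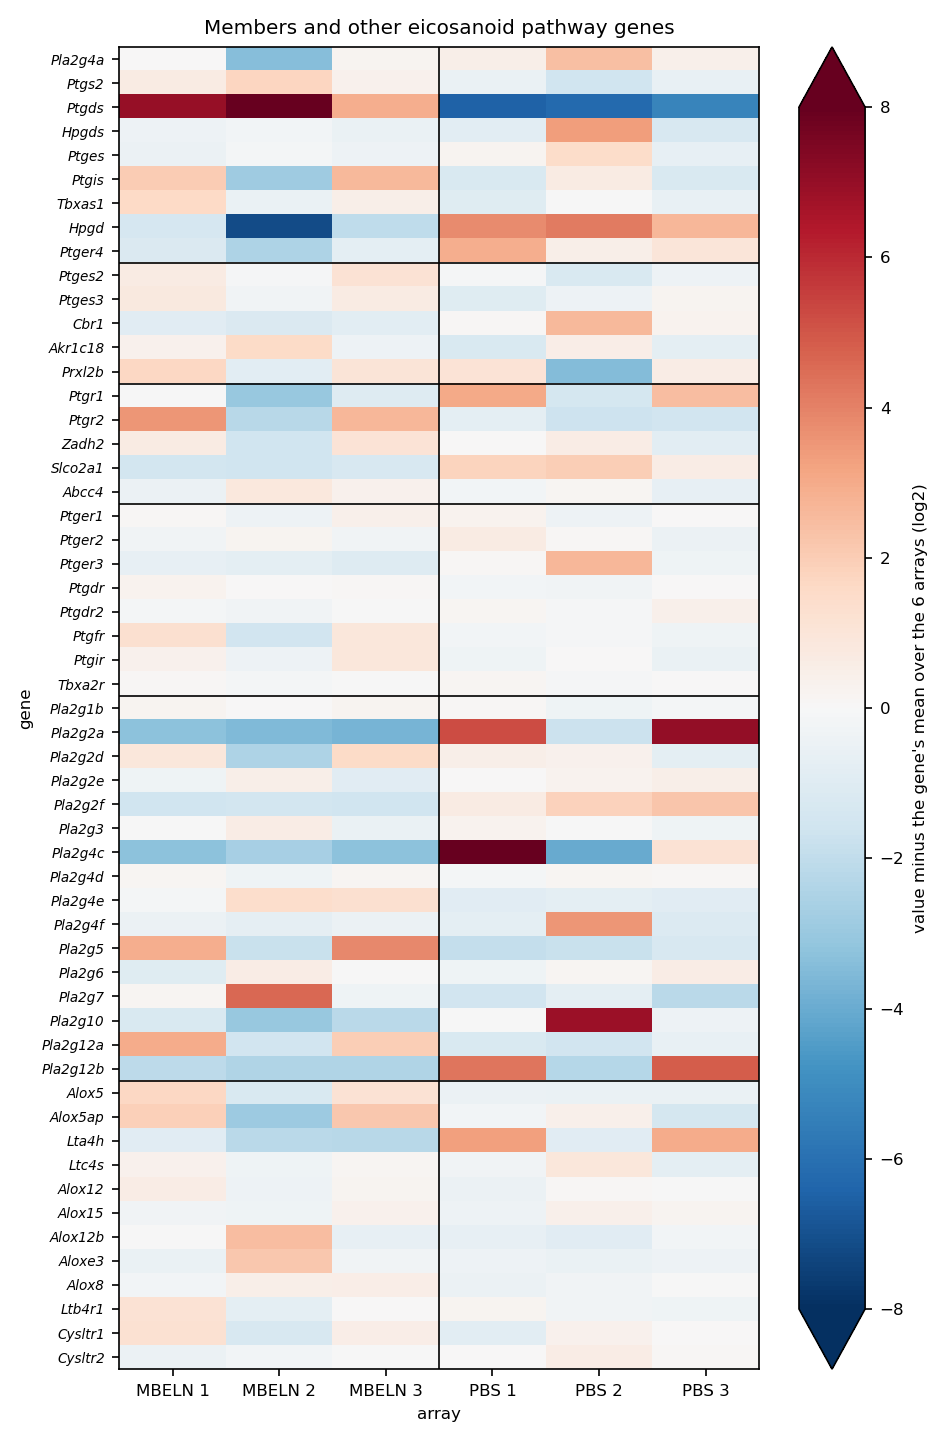
Log2 value of each gene minus its mean over the 6 arrays (colour, cut at 8 either way) for the 9 prostaglandin genes and 46 other pathway genes (rows, lines between lists) in each array (columns). Pathway genes at their lowest are most frequent in MBELN 2, with 16 of 46, and the share over all probe sets was not counted.

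Of the other synthesis genes, 0 of 5 passed (limma), and 1 had an unadjusted p under 0.05. Ptges2 and Ptges3 encode further prostaglandin E synthases, and Cbr1 encodes a carbonyl reductase that can convert prostaglandin E2. Cbr1 read 8.45, 8.19 and 8.50 in MBELN 1, 2 and 3, against 9.44, 11.99 and 9.65 in PBS 1, 2 and 3, without overlap. Its difference was -1.98 ± 0.73 (log2, SE; limma, adjusted p = 0.241). Ptges2 read 8.29, 7.52 and 8.75 in the MBELN arrays, against 7.50, 6.36 and 7.23 in the PBS arrays, and differed by 1.16 ± 0.48 (limma, adjusted p = 0.292). Ptges3 differed by 0.76 ± 0.46 (limma, adjusted p = 0.468). Both were above the dim level in all 6 arrays, unlike Ptges.

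Of the breakdown and transport genes, 1 of 5 passed. Slco2a1 encodes the transporter that takes prostaglandins into cells for inactivation by the product of Hpgd. It read 3.94, 3.86 and 4.15 in MBELN 1, 2 and 3, against 7.24, 7.41 and 6.03 in PBS 1, 2 and 3. All MBELN values were below the dim level, so Slco2a1 was lower by at least 6.00-fold (limma, adjusted p = 0.0229). The call was lost without MBELN 1, MBELN 3 or PBS 1 (limma, adjusted p = 0.0963, 0.0900 and 0.117), with differences between -2.99 and -2.74. Ptgr1, a reductase of prostaglandin breakdown, differed by -2.70 ± 1.41 (limma, adjusted p = 0.398). Ptgr2, a related reductase, read 12.54, 6.75 and 11.63 in MBELN 1, 2 and 3, against 8.23, 7.37 and 7.47 in PBS 1, 2 and 3, and overlapped (limma, adjusted p = 0.458).

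Of the other receptors, 0 of 8 passed (limma), 0 had an unadjusted p under 0.05 and 4 were dim in every array. Ptger3, the EP3 receptor, read 3.02, 2.94 and 2.70 in MBELN 1, 2 and 3, against 3.82, 6.37 and 3.37 in PBS 1, 2 and 3, and was above the dim level in PBS 2 alone (limma, adjusted p = 0.382). Ptgdr, a receptor of prostaglandin D2, was dim in all 6 arrays, also where Ptgds was bright, and so was Ptgir, the prostacyclin receptor (limma, adjusted p = 0.590 and 0.574).

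Of the other phospholipase A2 genes, 1 of 16 passed. Pla2g2f, a secreted phospholipase, read 2.82, 2.93 and 2.85 in MBELN 1, 2 and 3, against 5.06, 6.24 and 6.62 in PBS 1, 2 and 3. All MBELN values were below the dim level, so it was lower by at least 3.17-fold (limma, adjusted p = 0.0212). That call was lost without MBELN 1, MBELN 3 or PBS 3 (limma, adjusted p = 0.0928, 0.0934 and 0.0854), with differences between -3.10 and -2.78. Pla2g2a, a secreted phospholipase of Paneth cells, read 3.47, 3.20 and 3.04 in MBELN 1, 2 and 3, against 11.97, 5.05 and 13.81 in PBS 1, 2 and 3. It was dim in all MBELN arrays and did not pass (limma, adjusted p = 0.180). It was high in PBS 1 and PBS 3, the arrays with Paneth cell markers, and much lower in PBS 2, so no fold is given on the group mean. Pla2g4e, a cytosolic phospholipase gene, read 3.18, 4.75 and 4.66 in MBELN 1, 2 and 3, against 2.47, 2.60 and 2.46 in PBS 1, 2 and 3. MBELN 2 and MBELN 3 alone were above the dim level, which leaves a bound of at least 1.02-fold higher (limma, adjusted p = 0.143).

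Of the lipoxygenase and leukotriene genes, 0 of 12 passed (limma), 1 had an unadjusted p under 0.05 and 5 were dim in every array. Lta4h, the hydrolase that makes leukotriene B4, read 7.95, 6.74 and 6.64 in MBELN 1, 2 and 3, against 12.12, 7.96 and 11.81 in PBS 1, 2 and 3. The groups did not overlap, but PBS 2 lay nearly level with MBELN 1 and the difference of -3.52 ± 1.20 (log2, SE) did not pass (limma, adjusted p = 0.207). Alox8 and Cysltr2 were dim in every array (limma, adjusted p = 0.483 and 0.487).

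For the 6 prostaglandin genes whose values spanned over 4 log2 units, the genes most alike over the 6 arrays were sought among 11748, by the root mean square difference of values centred on each gene's own mean. This is a description over 6 arrays that differ in their tissue markers, so likeness over them can follow tissue. For Hpgd they were Pmp22 (0.233), Lima1 (0.544) and B3gnt3 (0.666). For Ptgis they were Eif3m (0.237), Hspg2 (0.245) and Card19 (0.261), and for Pla2g4a they were Gpx1 (0.243), Pttg1ip (0.263) and Ldha (0.319). For Hpgds they were Muc1 (0.327), Pde7a (0.359) and Klk15 (0.406). Muc1, also on the colon epithelium list, was above the dim level in PBS 2 alone, and Klk15 only in MBELN 3 and PBS 2. Their likeness to Hpgds thus rests mostly on PBS 2. For Ptger4 they were Helz2 (0.408), Pgpep1 (0.411) and H2-Q2 (0.415). Ptgds had none as close: Eef1a2 (1.74), Rasl10b (2.27) and Rcan2 (2.31) were the nearest. The measure is not scaled by span, and Ptgds had the widest span, 14.59, against 4.67 to 11.35 for the others. Its values are thus not directly comparable with theirs.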

How the data were processed

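Biotinylated cRNA for Affymetrix arrays was made from Trizol-extracted RNA, per the labels' protocols. A label also names an Ion AmpliSeq assay, which the sources used here do not resolve. The submitters' processing notes name Transcriptome Analysis Console 4.0. The normalization and the build were not given in the sources used here. Each array's deposited values were read as log2 from their range of 1.45 to 19.93. That scale is inferred. Of 28846 probe sets, 6640 controls were left out.

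MBELN was compared with PBS with lmFit and eBayes of limma 3.58.1 (R 4.3.3, statmod 1.5.0), two-sided, without covariates, adjusted by Benjamini-Hochberg over 22206 probe sets. Where all arrays of 1 group were dim, folds are bounds against the mean of the dim levels. The number of arrays limits the precision.

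The genes, pathway lists, marker lists and tests were chosen with earlier results of these data known. Named are the listed genes, in each pathway list those past the threshold and up to 3 with the smallest p, and the 3 genes most alike to each prostaglandin gene spanning over 4 log2 units. Alternatives were array weights, median centring, quantile normalization, a trended robust variance, a dim filter, blocks, other thresholds and left-out arrays. Methods were tested on simulated data.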

Additional observations from a re-analysis of the deposited data

How the results depend on the processing

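The count of prostaglandin genes past the threshold was 1, and became 2 at an adjusted p of 0.1, 2 with the filter on dim probe sets, 6 with array weights, 4 with a block for hybridisation controls, 6 within the higher and 6 within the lower level, 6 without both arrays numbered 2, and between 0 and 3 when 1 array was left out. Their median difference of -0.70 became 0.15 with array weights, 0.12 with the dim filter, -0.94 with the hybridisation block, -1.43 within the higher and 0.07 within the lower level, 0.62 without both arrays numbered 2, and between -1.21 and 0.70 when 1 array was left out. The count of other pathway genes was 2, and became 0 at an adjusted p of 0.01, 12 with array weights, 13 within the higher and 14 within the lower level, 17 without both arrays numbered 2, and between 0 and 8 when 1 array was left out. Of all probe sets 1150 passed, and 407 at 0.01, 1772 at 0.1, 5757 with array weights, 4174 within the higher and 7234 within the lower level, 6769 without both arrays numbered 2, and between 377 and 3738 when 1 array was left out. Hpgds reversed to 0.15 with array weights, 0.85 within the lower level, 0.70 without PBS 2 (between -1.64 and 0.70 over all left-out arrays) and 0.62 without both arrays numbered 2, Ptges to 0.074 and Ptgis to -1.62 within the lower level. The cause was not tested. Deviations of same-numbered arrays from their group means correlated at -0.03, -0.07 and -0.06, and those of other pairs between -0.09 and 0.08. Tissue markers differed within each group, so these values cannot tell whether the replicate numbers pair the arrays. With the replicate block 0 prostaglandin genes, 0 other pathway genes and 456 probe sets passed (limma), and Slco2a1 and Pla2g2f had an adjusted p of 0.105 and 0.0823. Median centring, quantile normalization and the trended robust variance left the same calls, Ptgds, Slco2a1 and Pla2g2f. Dim probe sets limit what Ptges, Tbxas1 and the other receptors can show.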
